A study of Arabidopsis thaliana with 6 samples.

Results

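The mitochondrion-encoded genes of Arabidopsis thaliana were taken as every row of the count files whose identifier starts with ATMG. There were 146 such rows among 33602 gene rows. Reads were counted in 62 of them in at least 1 library, and the other 84 were at 0 in all 6 libraries. Counts were high enough to test in 26 rows, and 120 rows could not be tested.

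The libraries were made from flow-sorted pollen of the accession Col. The plants carried the mutant allele paps1-3 together with the wild-type allele PAPS1 linked to pLat52::RFP, a red fluorescent reporter driven by a promoter active in pollen, and grains were sorted on that fluorescence. Both groups came from this source: 3 libraries are labelled paps1-3 and 3 wild type, each lettered A to C. PAPS1 is a nuclear poly(A) polymerase, an enzyme that adds the poly(A) tail to pre-mRNA. The labels give neither the gate nor the purity of the sorted fractions, and they do not say that the letters mark separate plants. The p-values below therefore weigh the difference between the groups against the spread among these libraries, and that spread may be technical. In bulk pollen RNA, a different proportion of grains or cells of a kind and a different amount of RNA per cell cannot be told apart.

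The plant mitochondrial genome holds the genes for the organelle's own ribosomal RNAs, for core subunits of the respiratory complexes I, III, IV and V, for some ribosomal proteins and for the maturation of cytochrome c. It also holds many open reading frames of unknown role. Most mitochondrial proteins, those of complex II included in Arabidopsis, are encoded in the nucleus and imported. Plant mitochondrial transcripts are not stabilised by a poly(A) tail as nuclear mRNAs are: in the organelle, added A residues mark RNA for decay. Chromosome 2 of Arabidopsis carries a large insertion of mitochondrial DNA close to its centromere, so many mitochondrial genes have a nuclear copy.

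In paps1-3 A, B and C, PAPS1 (AT1G17980) itself had 18, 9 and 3 counts, and in wild type A, B and C it had 32, 25 and 20. It was lower in paps1-3 by a log2 fold change of -2.61 ± 0.57 (SE; edgeR's quasi-likelihood test, Benjamini-Hochberg adjusted p = 2.73e-04). Gene counts per library ran from 19861313 to 41176647. Pollen markers were abundant in both groups: VGD1, a pectin methylesterase of the pollen tube, had 283930 to 668796 counts in every library. Markers of the pollen vegetative cell summed to between 14984 and 18868 CPM (counts scaled to a common library size) in paps1-3, and to between 54665 and 60455 CPM in wild type. The scaling was TMM, which edgeR uses to balance most genes. The TMM factors lay between 1.47 and 1.68 for the paps1-3 libraries and between 0.613 and 0.673 for the others. Scaling by library totals alone raised the median log2 fold change of all tested genes by 1.25. With library totals, the log2 fold change of PAPS1 was -1.36 ± 0.59 (SE, edgeR adjusted p = 0.0454).

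Mitochondrion-encoded rows took a far larger share of the counts in paps1-3 pollen than in wild-type pollen. The rows held 2.57%, 3.01% and 4.22% of all gene counts in paps1-3 A, B and C. In wild type A, B and C they held 0.0523%, 0.0353% and 0.0340%. The lowest paps1-3 library lay above the highest wild-type library, and the ratio of the group means was 80.6 (3.27% ± 0.85 against 0.0405% ± 0.0102, SD, n = 3 each).

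The excess did not come from 1 row. Without ATMG00020, the most abundant row, the ratio was 50.6. Without ATMG00020 and ATMG01390, the most abundant pair, the other rows held 0.0820% ± 0.0125 of the gene counts in paps1-3 and 9.37e-04% ± 1.85e-04 in wild type (SD, n = 3 each), a ratio of 87.5. Chloroplast-encoded rows, the other organelle genome, held 0.0167% ± 0.0041 in paps1-3 and 0.00274% ± 0.00052 in wild type, a ratio of 6.08.

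**Figure D1:**
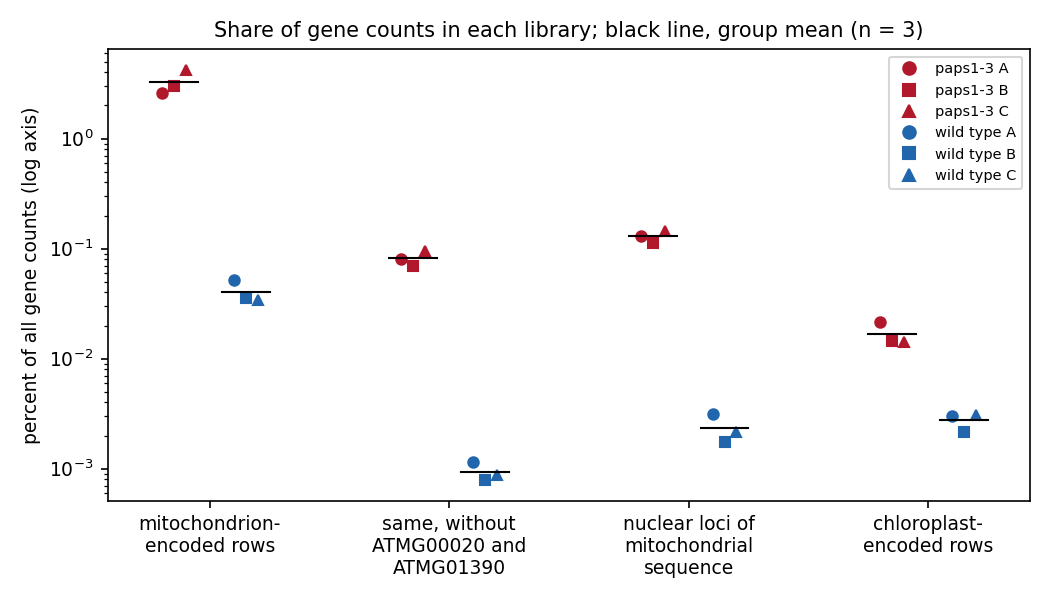
Percent of all gene counts (log axis) in each of the 6 libraries for the mitochondrion-encoded rows, for the same rows without ATMG00020 and ATMG01390, for the nuclear loci of mitochondrial sequence and for the chloroplast-encoded rows; symbols are libraries and black lines are group means. In each set the 3 paps1-3 libraries lie above the 3 wild-type libraries, by a ratio of means of 80.6, 87.5, 54.8 and 6.08.

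More of the rows were detected in paps1-3 as well. At least 1 count was found in 53, 53 and 49 rows in paps1-3 A, B and C, and in 26, 22 and 24 rows in wild type A, B and C. At 19861313 counts in every library the numbers were 51, 47 and 49 against 22, 21 and 20. Counts in paps1-3 alone were found in 30 rows, which is 48.4% of the 62 detected, and counts in wild type alone in 0. Wider detection was general to the paps1-3 libraries: of 31633 gene rows detected, 26.8% had counts in paps1-3 alone, and 149 rows had counts in wild type alone.

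Of the 26 tested rows, 26 were higher in paps1-3 and 0 were lower (edgeR's quasi-likelihood test, Benjamini-Hochberg adjusted p below 0.05 over all 14273 tested genes). The background was broad: 42.3% of all tested genes were called higher and 29.9% lower. The filter keeps rows with enough counts in 1 group. Of the 26 rows, 20 had fewer than 10 counts in at least 1 wild-type library and passed through the paps1-3 libraries, so that the filter itself favoured a higher value in paps1-3. The counts and the median over the 26 rows are therefore given as a description, and the 6 other rows are described apart. The median log2 fold change of the 26 rows was 4.50, against 0.37 over all tested genes, and 5.72 against 1.62 when library totals alone set the scale. The values ran from 1.84 to 7.51. Of the tested genes, 14.8% had a log2 fold change above 3 and 7.34% above 4. Of the 26 rows, 25 were above 3 and 21 above 4. The libraries of the 2 groups did not overlap in 26 of the 26 rows, and paps1-3 was higher without overlap in 44.0% of all tested genes.

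**Figure D2:**
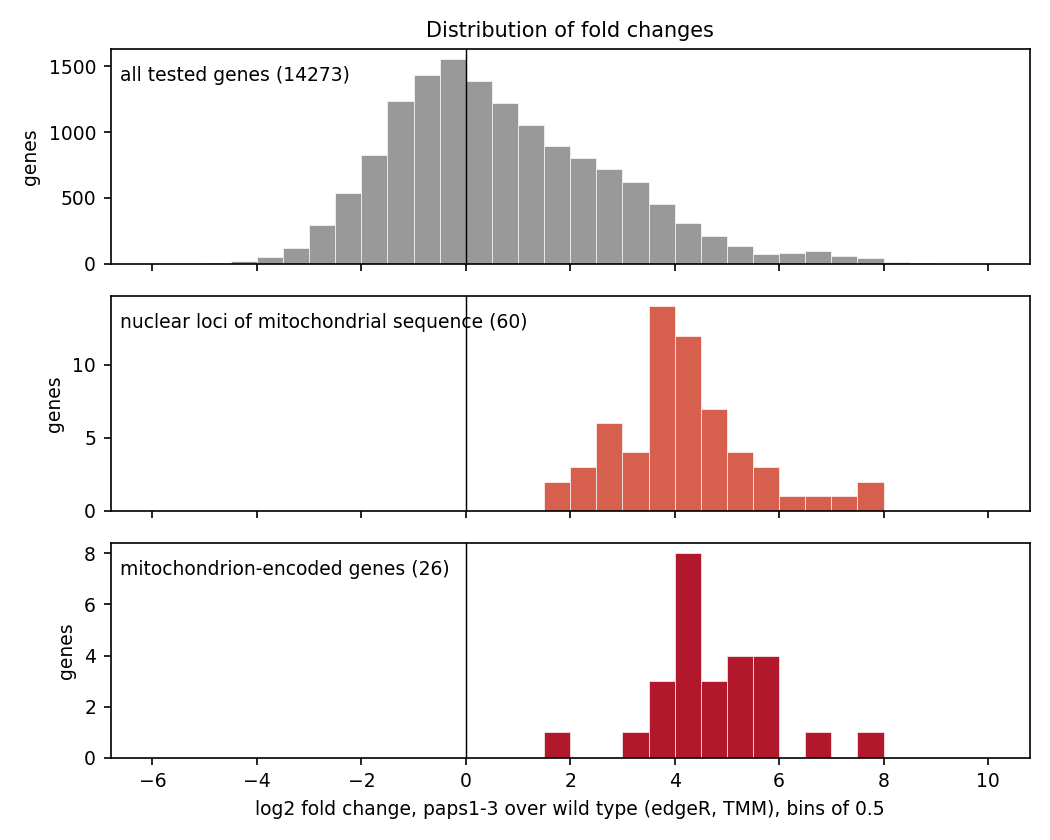
Number of genes in bins of 0.5 on the log2 fold change of paps1-3 over wild type (edgeR, TMM), for all 14273 tested genes, for 60 tested nuclear loci of mitochondrial sequence and for 26 tested mitochondrion-encoded genes; the vertical line is at 0. The mitochondrion-encoded genes run from 1.84 to 7.51 with a median of 4.50, and the median of all tested genes is 0.37.

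The filter can be set aside for 6 rows, which had at least 10 counts in every wild-type library. Of the 9072 tested genes that met this condition, 24.6% were called higher in paps1-3, and so were 6 of the 6 mitochondrion-encoded rows. These are described first. Their identifiers, like those of 93 rows in all, are given no name or product in the annotation used here, so no role is stated for them. Which identifiers are the ribosomal RNA genes could not be read from that annotation either.

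ATMG00020 held most of the counts placed in mitochondrion-encoded rows. Its counts were 833346, 1098378 and 743083 in paps1-3, in the order A to C, against 13774, 9540 and 10202 in wild type. The 3 paps1-3 libraries stood together far above the 3 wild-type libraries. The log2 fold change was 5.22 ± 0.26 (SE), a fold of 37.4 on the TMM scale (edgeR adjusted p = 2.76e-10).

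ATMG01390 came next, with 81275, 114060 and 76160 counts in paps1-3 and 2557, 1760 and 2292 in wild type. It was higher by a log2 fold change of 4.27 ± 0.25 (edgeR adjusted p = 8.33e-09), a fold of 19.3. Its groups did not overlap, and its rise was the smallest of these 6 rows. ATMG00030 had 15720, 15162 and 10993 counts in paps1-3 against 138, 103 and 155 in wild type. It was higher by 5.62 ± 0.19 on the log2 scale (edgeR adjusted p = 5.79e-17), the largest rise of the 6.

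The other 3 of these rows were less abundant and are named because they met the condition on wild-type counts. ATMG00090 had 3276, 4005 and 1902 counts against 32, 23 and 34, a log2 fold change of 5.51 ± 0.19. ATMG01360 had 2931, 2215 and 1343 counts against 58, 34 and 47, a log2 fold change of 4.36 ± 0.20. In both, every paps1-3 library had more than 20 times the count of any wild-type library. ATMG00640 had 1207, 1143 and 725 counts against 24, 18 and 26, a log2 fold change of 4.35 ± 0.21, again with no overlap. Their edgeR adjusted p-values lay between 2.57e-17 and 9.06e-15.

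The remaining tested rows had from 9 to 1842 counts in a paps1-3 library and at most 23 in a wild-type library. ATMG01170 was the most abundant of them, with 1842, 1661 and 935 counts in paps1-3 and 14, 17 and 9 in wild type, and its log2 fold change was 5.61 ± 0.22. ATMG00080, ATMG00060, ATMG00650, ATMG00070, ATMG00513 and ATMG00160 had at least 3 counts in every wild-type library, and their log2 fold changes lay between 4.20 and 5.18. Their highest wild-type count, 23, was below their lowest paps1-3 count, 243. Below these in abundance, 11 of the 26 rows had at least 1 wild-type library at 0, so their fitted folds rest on few wild-type reads.

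The largest and the smallest fitted fold changes both belonged to rows of low count. ATMG00200, named in the annotation only as an unknown protein, had 33, 38 and 21 counts in paps1-3 and 0 in each wild-type library. Its fitted log2 fold change of 7.51 depends on the prior count. Against a floor of 3 counts over the wild-type group, it was at least 13.4-fold higher. ATMG00670 had 22, 34 and 28 counts in paps1-3 and 7, 4 and 0 in wild type, a log2 fold change of 1.84 ± 0.74 (edgeR adjusted p = 0.0293). Its groups did not overlap in CPM. The edgeR call was lost when paps1-3 B, paps1-3 C, wild type B or wild type C was left out (adjusted p = 0.0537, 0.153, 0.101 and 0.173), with no filter on low counts (0.0565) and in the DESeq2 test (0.0698).

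**Figure D3:**
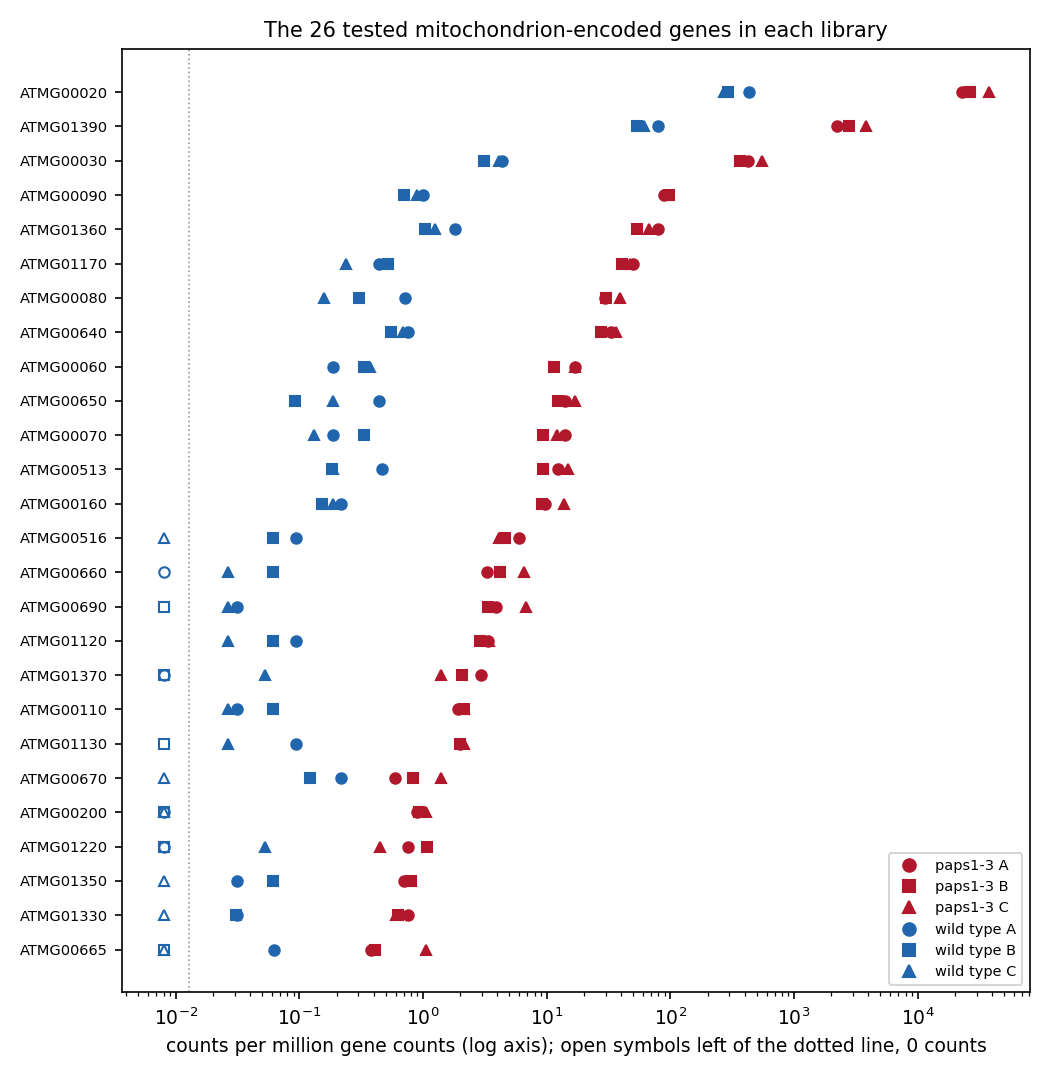
Counts scaled to library totals (CPM, log axis) of the 26 tested mitochondrion-encoded genes in each of the 6 libraries, ordered by total count; open symbols left of the dotted line mark 0 counts. In each row the 3 paps1-3 libraries lie to the right of the 3 wild-type libraries; the gap is narrowest for ATMG00670, with 22, 34 and 28 counts against 7, 4 and 0.

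The annotation ties a description to 45 of the 146 identifiers, through notes on nuclear genes that name the mitochondrial gene. Among them were 19 identifiers described with a known role. For the respiratory complexes they were 3 of complex I, 2 of III, 2 of IV and 5 of V. The others were 4 ribosomal proteins and 3 of cytochrome c maturation. A description does not show that the row is that gene. For ATMG00590, ATMG01280 and ATMG01090, the nuclear namesake shared little or no exon sequence with a named mitochondrial gene. None of the 19 had enough counts to be tested. They do not cover all respiratory genes, because a gene that no such note names has no description here. Respiratory genes may also be among the 93 identifiers not mentioned, which include 23 of the 26 tested rows. They held 38 counts over the 3 paps1-3 libraries and 4 over the 3 wild-type libraries, and 12 of them were at 0 in all 6 libraries. A count of 0 over a group allows up to 3 counts, which is 0.0198 CPM in paps1-3 and 0.0452 CPM in wild type and covers counting error only.

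Rows with such a nuclear namesake were hardly counted. Of the 53 identifiers that the notes mention in any way, 5 reached 10 counts over the 3 paps1-3 libraries, and the 53 together held 322 counts. Of the 93 identifiers not mentioned, 36 reached 10 counts, and the 93 together held 3023402. Most of that sum lay in ATMG00020, with 2674807 counts, and in ATMG01390, with 271495. The named respiratory genes were therefore followed through their nuclear namesakes, which lie on chromosome 2.

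Those nuclear rows consist of mitochondrial sequence. The RefSeq assembly TAIR10.1 was cut into all runs of 99 bases, the length of the shorter read. Of the runs in its mitochondrial genome, 67.6% were present without a mismatch in chromosome 2. Among 36 mitochondrial genes named there, 16 had all of their exon runs in the nuclear genome, atp1, cob, cox3 and nad4 among them. For 8 no run was found there: atp4, ccmB, cox1, nad4L, nad9 and the ribosomal RNA genes rrn5, rrn18 and rrn26. In all, 108 nuclear gene rows had at least 50% of their runs in the mitochondrial genome, 105 of them on chromosome 2. A read that fits both genomes cannot be assigned to either from its sequence. The counter entered reads placed at several positions apart from the gene rows. A read that fitted both genomes equally well in the alignment is therefore counted in neither. Whether the reads counted in these rows came from the mitochondrial gene, from its nuclear copy or from both was not tested. The build the libraries were aligned to, TAIR10, was not used here, and how its mitochondrial sequence bears on the zeros was not tested.

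The nuclear rows of mitochondrial sequence were also higher in paps1-3. They held 0.129% ± 0.017 of gene counts in paps1-3 and 0.00235% ± 0.00073 in wild type (SD, n = 3 each), a ratio of 54.8 with no overlap. Of 60 tested rows, 59 were called higher and 0 lower, beside 42.3% higher over all tested genes, and their median log2 fold change was 4.06. Of these 60 rows, 50 had fewer than 10 counts in at least 1 wild-type library and passed the filter through the paps1-3 libraries, so that the filter itself favoured a higher value in paps1-3. The other 10 were all called higher, beside 24.6% of tested genes with such wild-type counts, with log2 fold changes from 3.10 to 5.62. Requiring 90% of the runs in place of 50% left 79 rows, of which 45 were tested and 44 were higher.

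For complex I, the NADH dehydrogenase that feeds electrons into the chain, the mitochondrial row of NADH dehydrogenase 2B (ATMG01320) had 2, 3 and 2 counts in paps1-3 and 1 in each wild-type library. Its nuclear namesake AT2G07689, with exons of nad2, had 874, 635 and 422 counts against 52, 22 and 26, a log2 fold change of 3.10 ± 0.26. ATMG00990 (NADH dehydrogenase 3) and ATMG01275 (NADH dehydrogenase 1A) were at 0 in all 6 libraries. Their namesakes AT2G07751 and AT2G07785 had 130, 106 and 72 counts against 4, 3 and 1, and 197, 144 and 93 against 5, 3 and 1. The most abundant nuclear row with complex I exons was AT2G07711, with exons of nad5, at 12424, 11210 and 6996 counts against 262, 150 and 215 (log2 fold change 4.46 ± 0.19). AT2G07709 (nad7) and AT2G07717 (nad4) were higher by 3.85 ± 0.29 and 3.95 ± 0.21.

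For complex III, which passes electrons on to cytochrome c, ATMG00220 (apocytochrome b) was at 0 in all 6 libraries. Its namesake AT2G07727, with exons of cob, had 2021, 1393 and 917 counts in paps1-3 and 71, 50 and 25 in wild type, a log2 fold change of 3.71 ± 0.29. ATMG00590, described as a cytochrome b/b6 protein, was also at 0. Its namesake AT2G07718 had 32, 41 and 11 counts against 0, 0 and 1. AT2G07718 shared 11 exon runs with cob, where AT2G07727 shared 1084. In both pairs the reads lay in the nuclear row, and the paps1-3 libraries were higher.

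For complex IV, the terminal oxidase, ATMG00730 (cytochrome c oxidase subunit 3) had 1 count in paps1-3 B and none elsewhere. Its namesake AT2G07687, with exons of cox3, had 1464, 1148 and 740 counts against 25, 6 and 14, a log2 fold change of 5.05 ± 0.28. ATMG01280, described as like subunit II of the oxidase, was at 0. Its namesake AT2G07695 was higher by a log2 fold change of 5.26 ± 0.61. AT2G07695 shared no exon run with a named mitochondrial gene.

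Complex V, the ATP synthase, gave the most abundant nuclear row of mitochondrial sequence. ATMG01190 (ATP synthase subunit 1) had 1 count in all, in paps1-3 A. Its namesake AT2G07698, annotated as the F1 alpha subunit and holding the exon of atp1, had 17136, 17934 and 11342 counts in paps1-3 and 151, 125 and 156 in wild type. It was higher by 5.62 ± 0.17 on the log2 scale (edgeR adjusted p = 6.06e-18).

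The membrane subunits of the ATP synthase followed the same pattern. ATMG00410 (ATPase subunit 6-1) and ATMG01080 (subunit 9, the ring subunit) were at 0 in all 6 libraries. AT2G07741, with the exon of atp6, had 650, 595 and 431 counts against 14, 9 and 3. AT2G07671, with the exon of atp9, had 163, 149 and 84 counts against 0, 0 and 5. The log2 fold changes of these 2 nuclear rows were 4.87 ± 0.32 and 5.08 ± 0.57. ATMG00480 (subunit 8) had 4, 2 and 2 counts against 0, and its namesake AT2G07707 was higher by 4.17 ± 0.32.

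Of the ribosomal proteins, ATMG00980, of the S12 family, was the best counted annotated row of known role, at 7, 6 and 1 counts in paps1-3 and 0 in wild type. Its namesake AT2G07675 had 556, 445 and 265 counts against 26, 7 and 9, a log2 fold change of 3.72 ± 0.32. ATMG00210 (L5), ATMG00290 (S4) and ATMG01270 (S7) were at 0 in all 6 libraries. Their namesakes AT2G07725, AT2G07734 and AT2G07696 were higher by log2 fold changes of 3.90 ± 0.22, 4.42 ± 0.40 and 3.37 ± 0.46.

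The genes of cytochrome c maturation attach haem to cytochromes c, and their nuclear namesakes held 52 to 138 counts over the paps1-3 libraries. ATMG00180 (cytochrome C biogenesis 452) had 3, 2 and 0 counts against 0, 0 and 1, and its namesake AT2G07815 had 61, 47 and 24 in paps1-3 and none in any wild-type library. A second row with exons of the same gene ccmFC, AT2G07723, had 814, 1010 and 504 counts against 26, 14 and 29, a log2 fold change of 3.91 ± 0.23. ATMG00900 (cytochrome C biogenesis 256) was at 0, and it has a pair of namesakes. AT2G07771 was higher by 3.88 ± 0.75. AT2G07681, with 32, 12 and 8 counts against 5, 1 and 1, had a log2 fold change of 1.62 ± 0.74 and was the tested nuclear row that was not called (edgeR adjusted p = 0.0528). With library totals alone it was called (adjusted p = 0.00234). ATMG00960, described as a cytochrome C assembly protein, had 1 count in paps1-3 B and 1 in paps1-3 C, and its namesake AT2G07768 had 13, 26 and 13 counts against 0, 0 and 3.

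**Figure D4:**
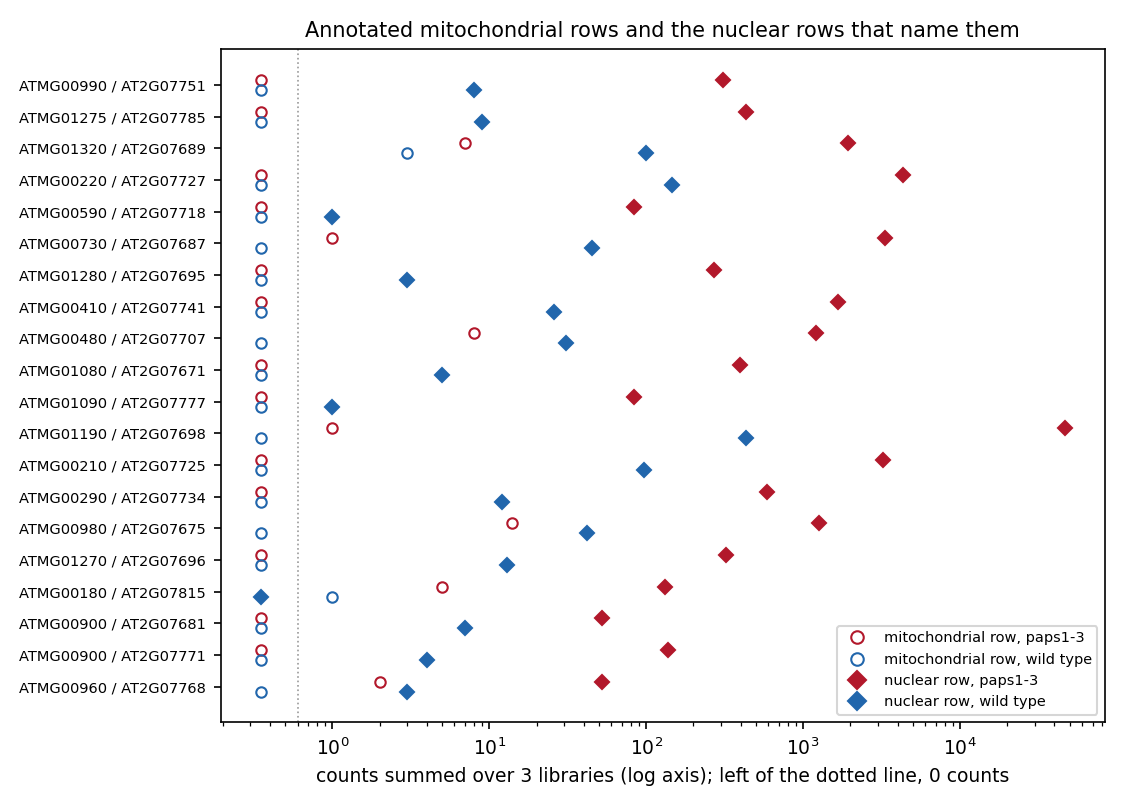
Counts summed over the 3 libraries of each group (log axis) for 19 annotated mitochondrial rows (open circles) and the nuclear rows whose notes name them (diamonds), 20 pairs in all, from complex I at the top to cytochrome c maturation at the bottom; symbols left of the dotted line mark 0. The mitochondrial rows reach at most 14 counts, and the nuclear rows hold 52 to 46412 counts in paps1-3.

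The make-up of the mitochondrial counts was described without a test. ATMG00020, ATMG01390 and ATMG00030 together held 98.8% ± 0.28 of the mitochondrion-encoded counts in paps1-3 and 98.6% ± 0.02 in wild type (SD, n = 3 each), and these ranges overlapped. As shares of the mitochondrion-encoded counts, each of these 3 rows lay apart between the groups, though ATMG00030 only just. ATMG00030 made up 1.66%, 1.22% and 1.31% in paps1-3 and 0.827%, 0.891% and 1.21% in wild type. ATMG00020 made up 88.5% ± 0.21 in paps1-3 and 81.5% ± 1.7 in wild type, and ATMG01390 8.96% ± 0.31 and 16.1% ± 1.5. For every 100 counts of ATMG00020 there were 9.75, 10.4 and 10.2 counts of ATMG01390 in paps1-3 A, B and C, and 18.6, 18.4 and 22.5 in wild type A, B and C. The mean of paps1-3 was 0.511 times that of wild type, and the ranges lay apart. The counts of ATMG00030 per 100 of ATMG00020 overlapped, at 1.89, 1.38 and 1.48 in paps1-3 and 1.00, 1.08 and 1.52 in wild type.

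Other rows lay apart in either direction. With the 2 most abundant rows set aside, ATMG00030 made up 52.8%, 52.6% and 58.3% of the rest in paps1-3 and 37.8%, 39.9% and 46.8% in wild type. ATMG01360 went the other way, at 9.85%, 7.69% and 7.13% against 15.9%, 13.2% and 14.2%, and so did ATMG00640, at 3.96% ± 0.10 against 7.14% ± 0.65. These rows did not overlap between groups, nor did ATMG00513. ATMG00090, ATMG01170, ATMG00080, ATMG00060, ATMG00650 and ATMG00070 overlapped. Which rows lay apart depended on the denominator, because ATMG01390 is part of it. With ATMG00020 alone set aside, ATMG01360, ATMG00640 and ATMG00513 overlapped, and ATMG00090, ATMG01170 and ATMG00080 lay apart, higher in paps1-3 by ratios of means of 2.20, 2.29 and 1.76. ATMG00030 was higher without overlap under both. With both set aside, the wild-type values rest on 258 to 365 counts per library for all rows together. Relative to ATMG00020, the nuclear atp1 row AT2G07698 had 2.06, 1.63 and 1.53 counts per 100 in paps1-3 and 1.10, 1.31 and 1.53 in wild type, and the ranges overlapped.

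**Figure D5:**
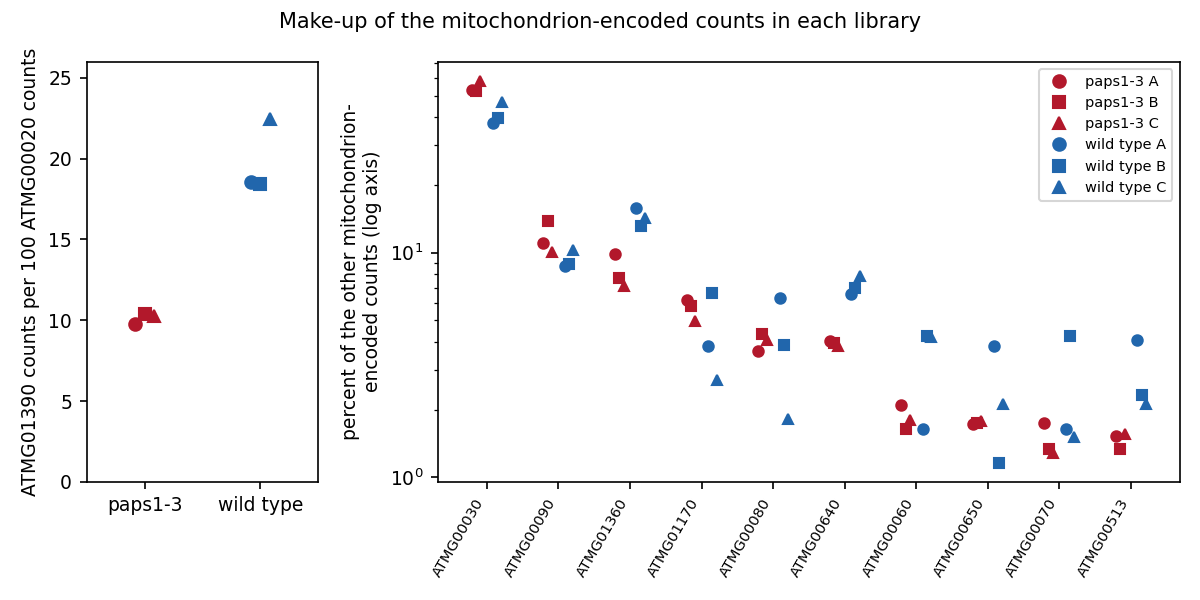
Left, counts of ATMG01390 per 100 counts of ATMG00020 in each library; right, percent of the mitochondrion-encoded counts other than those 2 rows (log axis) for the next 10 rows. On the left the paps1-3 libraries lie at 9.75 to 10.4 and the wild-type libraries at 18.4 to 22.5; on the right the groups are apart for ATMG00030, ATMG01360, ATMG00640 and ATMG00513.

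The 120 untested rows were nearly empty. Of them, 84 had no count, and the other 36 held 455 counts in paps1-3 and 13 in wild type. Counts in paps1-3 alone were seen in 29 of these 36. ATMG00630 was the most abundant, with 22, 29 and 3 counts in paps1-3 and 0 in wild type, at least 7.87-fold above the floor of 3 counts over the group. ATMG00130 had 26, 10 and 6 counts against 0, at least 6.12-fold above it. In ATMG00010, with 18, 15 and 2 counts against 3, 0 and 0, paps1-3 C lay below wild type A. Of the identifiers described as unknown proteins, ATMG00400 had 7, 12 and 7 counts against 0 and ATMG01220, which was tested, 28, 44 and 9 against 0, 0 and 2 (log2 fold change 3.92 ± 0.91). Of 8 identifiers mentioned only through a nuclear pseudogene, ATMG01330 was tested, with 28, 26 and 12 counts against 1, 1 and 0 (log2 fold change 3.69 ± 0.84). ATMG01260 had 1, 8 and 0 counts against 0, and the other rows of this class had at most 1 count. Of 5 identifiers with another description, ATMG00560 had 2 counts and ATMG01110 had 1, each in paps1-3 C, and the others were at 0.

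Nuclear genes whose products act with the mitochondrial genes had a median fold change closer to that of all tested genes. Of 42 nuclear-encoded subunits of complexes I to V, 28 were called higher, 2 lower and 12 were not called, beside 42.3% higher and 29.9% lower over all tested genes. The median log2 fold change was 0.97, against 0.37 over all tested genes. With library totals alone, 42 of the 42 were called higher, as were 70.2% of all tested genes. In complex V, 8 of the 8 tested nuclear subunits were higher, with a median log2 fold change of 1.74. AT5G08680, an ATP synthase beta subunit, had 1663, 1776 and 1378 counts against 104, 119 and 109 (log2 fold change 2.78 ± 0.19). ATP5 (AT5G13450), the delta subunit, and AT5G08690, another beta subunit, were higher by 3.31 ± 0.24 and 2.22 ± 0.17.

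The counts by complex are small and are read against the same 42.3% and 29.9%. In complex I, 10 of 13 were higher and 2 lower. The 24 kDa subunit AT4G02580 and FRO1 (AT5G67590) were higher by 1.49 ± 0.15 and 1.75 ± 0.18, and OEP16-3 (AT2G42210), a protein of the Tim17 family, by 1.18 ± 0.17. In complex II, succinate dehydrogenase, 2 of 5 were higher, a share near that of all tested genes: SDH1-1 by 0.62 ± 0.14 and SDH2-1 by 0.52 ± 0.13. In complex III and cytochrome c, 6 of 11 were higher. CYTC-1, a cytochrome c, had 204, 180 and 175 counts against 9, 11 and 20 (log2 fold change 2.74 ± 0.35), and MPPBETA and the cytochrome c1 gene AT3G27240 were each higher by 1.35. In complex IV 2 of 5 were higher, again near that share, AT2G47380 by 1.28 ± 0.19 and AT3G15640 by 1.37 ± 0.26.

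The bypass enzymes of the chain, alternative oxidases and NAD(P)H dehydrogenases, were higher in 6 of 9 tested genes and lower in 0, beside 42.3% and 29.9% of all tested genes. AOX1A, an alternative oxidase that takes electrons before complex III, had 1318, 1399 and 502 counts against 175, 264 and 183 (log2 fold change 1.13 ± 0.17). NDB3 was higher by 1.43 ± 0.25 and AOX1C by 3.87 ± 0.99. The libraries of AOX1A did not overlap once scaled.

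Genes for mitochondrial transcription, RNA processing and RNA decay were higher in 9 of 16 tested genes and lower in 2, beside 42.3% and 29.9% of all tested genes. RUG3, which takes part in nad2 splicing in Arabidopsis, was lower by -2.59 ± 0.33 on the log2 scale. RIP1, an RNA editing factor, had 37, 54 and 27 counts in paps1-3 and was at 0 in wild type. AT5G14580, annotated as a polyribonucleotide nucleotidyltransferase, had 35, 20 and 18 counts against 2, 0 and 1.

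Genes for organelle DNA replication, recombination and decay were higher in 2 of 5 tested genes and lower in 2, shares not far from the 42.3% and 29.9% of all tested genes. POLGAMMA1 (AT3G20540), annotated as a polymerase gamma, had 223, 120 and 63 counts in paps1-3 and 510, 527 and 584 in wild type, a log2 fold change of -3.22 ± 0.20. AT1G30680, a toprim domain protein, was lower by -2.37 ± 0.38. DPD1, an exonuclease that degrades organelle DNA in Arabidopsis pollen, was higher: it had 789, 692 and 414 counts against 41, 41 and 33 (log2 fold change 2.87 ± 0.20). These 3 genes kept their direction and their call when library totals alone set the scale.

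Markers of other tissues were low. Of 10 leaf and photosynthesis markers, 3 were tested: RBCS3B and RBCS2B were lower and PSBO1, at 23, 38 and 19 counts against 0, 0 and 2, was higher. The list summed to between 2.94 and 4.51 CPM in paps1-3 and between 6.38 and 6.71 CPM in wild type, and CAB3 was at 0 in all 6 libraries. That direction turned with the scale: as a share of gene counts the list held 5.66e-04% in paps1-3 and 4.24e-04% in wild type, and RBCS3B and RBCS2B were not called by library totals (log2 fold changes -0.24 and -0.27, adjusted p = 0.373 and 0.684). Of 8 markers of the tapetum, the nurse layer of the anther, LAP6 alone was tested and was higher (56, 28 and 23 counts against 3, 2 and 3). The list summed to between 1.17 and 4.43 CPM in paps1-3 and between 0.317 and 0.520 CPM in wild type, and the tapetal gene AT5G07230 was at 0 in all 6 libraries. The part of these markers in the mitochondrial counts was not tested.

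Markers of pollen itself were lower in paps1-3 under TMM. They are read against all 14273 tested genes, of which 29.9% were lower under TMM. With library totals alone, 1387 of all tested genes were lower and 10018 higher. Of 6 vegetative cell markers, 5 were lower, RALFL4 by -4.75 ± 0.15, PRK2A by -2.54 ± 0.14 and ANX2 by -2.18 ± 0.14, and with library totals alone 4 were lower and 1 higher. Of 5 sperm cell markers, 4 were tested and lower, GEX1 by -1.75 ± 0.14, MGH3 by -1.31 ± 0.16 and HAP2 by -1.20 ± 0.17, of which GEX1 alone was called lower with library totals. Reads placed at several positions made up between 7.90% and 11.6% of all entries in paps1-3, and between 5.30% and 6.14% in wild type. Their part in the mitochondrial counts was not tested.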

How the data were processed

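RNA was measured in 6 libraries of sorted pollen, 3 per group. Total RNA was made into libraries with a kit that keeps no strand (Ovation RNA-seq system v2) and read in pairs of 101 and 99 bases, per the labels' protocols. The authors deposited raw counts per gene, and the submitters' processing notes name TopHat2, HTSeq and TAIR10. Reads of overlapping or antisense mitochondrial genes cannot be told apart without strand. Summary entries of the counter, 7.90% to 11.6% multiply placed in paps1-3, were left out of library sizes.

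Differential counts were tested with edgeR 4.0.16 in R 4.3.3 (quasi-likelihood, robust, TMM, filterByExpr with a minimum count of 10 and total of 15, genotype alone) over all 14273 tested genes, with Benjamini-Hochberg adjustment at 0.05. The SE of an edgeR log2 fold change was worked back from that test, as its absolute value divided by the square root of the F statistic. DESeq2 1.42.0 was an alternative. The fit was tested on simulated data. The members and lists were chosen with earlier results of these data known. Sums over members have no test. The files give no gene lengths, so levels were not compared between genes.

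Named rows were, in each class, the 3 with the highest counts, and the extremes of the fold change; of each nuclear list, up to 3 called genes with the smallest p. Rows named for their wild-type counts, their make-up or a nuclear namesake were chosen after their values were seen, as was the rule on runs of 99 bases. Descriptions come from RefSeq TAIR10.1, whose notes mention 53 of the 146 identifiers. No coordinates or sequences are given, since the builds differ. Other settings were library totals, DESeq2 size factors, scaling from nuclear genes alone, other filters, a replicate block and leaving out each library.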

Additional observations from a re-analysis of the deposited data

How the results depend on the processing

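The number of mitochondrion-encoded genes called higher was 26 by library totals, DESeq2 size factors, scaling from nuclear genes alone and with the replicate block, 31 with no filter, 20 with a filter of 1 CPM in 3 libraries, 29 with the DESeq2 test and 25 to 32 when each library was left out in turn. The number called lower was 0 under each of these. Among genes with at least 10 counts in every wild-type library, a condition added after seeing the data, 6 were called higher. ATMG00670 lost its call in 6 settings, with log2 fold changes of 1.20 to 1.89. By library totals, 10018 tested genes were called higher and 1387 lower, in place of 6037 and 4272. The list counts by totals became 5 higher for complex II, 11 for complex III and 5 for complex IV, 1 higher for vegetative cell markers, 0 lower for complex I and for leaf markers, and 1 lower each for RNA processing genes and sperm markers. The nuclear rows of mitochondrial sequence called higher were 36 under the 1 CPM filter, in place of 59. Without the most abundant row, the mitochondrial share was 0.376% in paps1-3 and 0.00743% in wild type, and ATMG01390 made up 77.7% and 87.4% of the counts left. Leaving out each library gave shares between 2.79% and 3.62% in paps1-3, and between 0.0347% and 0.0438% in wild type. Same-letter libraries had deviations correlated by 0.231, 0.0989 and 0.0755 (A, B, C). Each correlated best with its own letter, a hint of pairing from the data that the labels do not state. What moves these counts was not tested beyond the change in scale, in genes tested or in libraries. Wild-type counts of 0 to 3 in many rows limit their folds.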
